A study of Homo sapiens with 6 samples.

Results

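CD44 and 6 genes that make or break down hyaluronan were followed through the transcript counts of the human colorectal cancer cell line HCT116 after transfection with an siRNA against the long noncoding RNA AC010789.1 (si-AC010789.1, n = 3) or with an siRNA without a named target (siRNA-NC, the negative control, n = 3), called si libraries and controls from here on. Both groups are labelled as the same line and both received an siRNA. A single siRNA was used against the target, so effects of that siRNA on other transcripts cannot be told apart from effects of the target. The members were CD44, CEMIP2, CEMIP, HYAL2, HYAL3, HAS2 and HAS3, and every listed transcript of these symbols in GENCODE v29 (GRCh38) was taken, which gave 69 of the 98886 transcripts and 7 of the 18750 genes with counts. The choice was made with results of this same comparison in view, so the levels of the 7 genes and of their transcripts in the 2 groups are given as a description, and an adjusted p only places a gene in the fit over all genes.

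Hyaluronan is a very long sugar polymer of the extracellular matrix. Synthases in the plasma membrane extrude it, hyaluronidases and the cell-surface or secreted CEMIP proteins take part in cutting it, and the receptor CD44 binds it at the cell surface. CD44 is known in colorectal tissue as a Wnt target and a marker of cells with stem-like properties, and its mRNA is known for a run of variable exons that alternative splicing adds between constant exons.

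The libraries held between 11277222 and 13443866 counts, and levels are given in CPM, counts scaled by library size with TMM factors. After a filter on low counts, 13750 genes and 44319 transcripts were fitted by the quasi-likelihood method of edgeR, with a biological coefficient of variation of 0.170 for genes and 0.698 for transcripts. The level of AC010789.1 was not analysed here. Among 6 markers of colon epithelium, KRT8 was between 444 and 850 CPM and KRT18 between 351 and 535 CPM, EPCAM only between 3.10 and 5.59 CPM, and KRT19, VIL1 and CDX2 had no row in the table used here. The fibroblast markers COL1A1, COL3A1, PDGFRB and DCN summed to between 59.7 and 69.3 CPM in the controls and between 63.8 and 68.6 CPM in the si libraries, mostly COL1A1, while of 7 leukocyte and endothelial markers CD14 had from 0 to 14 counts, CDH5 from 10 to 29 and VWF from 0 to 4, and PTPRC, CD3E, LYZ and PECAM1 had no row. The cells are called HCT116 here as the labels do. Neither the identity of the line nor the part of other cells in any result was tested. The paper calls the replicates biological repeats and gives cells of differing passage as a possible source of their spread, while the labels give no passage, which was not tested.

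Sequences of 2 splice choices in these genes carry the results and are shown from the GENCODE v29 transcripts, 5′ to 3′ on the transcript strand. CEMIP2 lies on the minus strand of chromosome 9, from 71683366 to 71816690, and its transcripts CEMIP2-202 (ENST00000377044), CEMIP2-205 (ENST00000377066) and CEMIP2-210 (ENST00000542935) differ at an exon that starts, in transcript order, at 71730914. CEMIP2-210 leaves this exon 34 bases earlier than the others, at 71730739 in place of 71730705, and joins the same next exon at 71730253. The reading frame then meets a TAA stop codon just past the junction, after 580 codons and 2178 nt before the last exon junction. The annotation classes CEMIP2-210 as a target of nonsense-mediated decay, the pathway that removes mRNAs with an early stop. The stop codon is in capitals in the junction of CEMIP2-210 (chr9:71730739-71730768 joined to chr9:71730224-71730253), and the 34 bases that CEMIP2-210 lacks are in capitals in the junction of the coding forms (chr9:71730705-71730768 joined to chr9:71730224-71730253).
CEMIP2-210: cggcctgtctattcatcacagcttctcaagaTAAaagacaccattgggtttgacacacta
CEMIP2-202 and CEMIP2-205: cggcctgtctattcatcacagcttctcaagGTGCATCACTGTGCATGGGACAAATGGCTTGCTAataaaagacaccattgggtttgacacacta

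A coding exon of 189 nt (chr9:71734806-71734994, exon 6 of CEMIP2-210) tells the 2 full-length coding forms apart, since CEMIP2-202 has it and codes for 1383 codons while CEMIP2-205 lacks it and codes for 1320, 63 fewer. CEMIP2-210 holds this exon. It is shown because it is the longest stretch by which CEMIP2-210 and CEMIP2-205 differ, and the map of the 3 transcripts places it.
Exon of CEMIP2-202 and CEMIP2-210: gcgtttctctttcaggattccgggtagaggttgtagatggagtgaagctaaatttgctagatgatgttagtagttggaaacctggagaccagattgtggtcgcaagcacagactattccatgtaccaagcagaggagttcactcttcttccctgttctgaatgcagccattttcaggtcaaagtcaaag

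**Figure D1:**
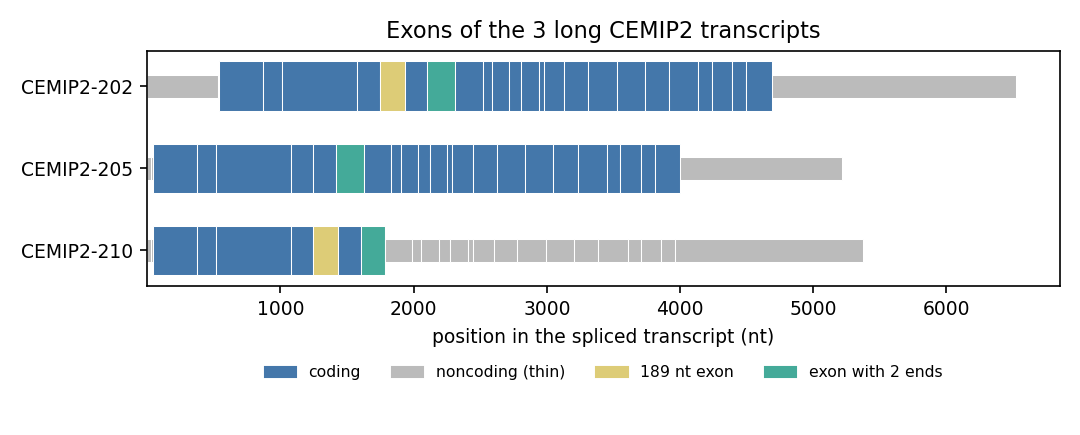
Exons of CEMIP2-202, CEMIP2-205 and CEMIP2-210 on the spliced transcript, in nt from its 5′ end, with thick boxes for coding and thin boxes for noncoding sequence. The exon of 189 nt is yellow and the exon with 2 alternative ends is green. The stop codon of CEMIP2-210 ends at nt 1785, just after the shorter form of the green exon.

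CD44 lies on the plus strand of chromosome 11, from 35138870 to 35232402. The transcript of the standard form, CD44-201 (ENST00000263398, 361 codons), joins the constant exon that ends at 35190065 directly to the one that starts at 35214852. The longest form, CD44-208 (742 codons), holds 9 variable exons with 1143 nt between them, numbered v2 to v10 in their order. The direct junction is shown beside the junction from v10 (chr11:35211425-35211449 joined to chr11:35214852-35214876), with the next constant exon in capitals, since these junctions tell the standard form from the form with v10.
CD44-201 direct junction: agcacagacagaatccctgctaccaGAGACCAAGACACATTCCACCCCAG
CD44 v10 junction: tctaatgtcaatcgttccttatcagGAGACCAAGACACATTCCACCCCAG

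Summed per gene, CEMIP2 was lower in the si libraries than in the controls and CD44 was at a like level in both. CEMIP2, a transmembrane protein known as a cell-surface hyaluronidase, had 262, 260 and 282 CPM in the controls and 184, 173 and 175 CPM in the si libraries. The groups did not overlap, with means of 268 ± 12.02 and 178 ± 6.02 CPM (SD, n = 3 each). In the fit, CEMIP2 had a log2 fold change of −0.59 with an SE (standard error) of 0.051 and an adjusted p of 0.0139 (edgeR, Benjamini-Hochberg over all genes). With the transcript CEMIP2-210 left out of the sum, a choice made after the data were seen, the direction turned. The log2 fold change of CEMIP2 was then 0.63 (adjusted p = 0.0253 in edgeR). CEMIP2-210 was listed at 0 in every si library, so leaving it out could only raise this value. The turn therefore does not show that the lower sum came from that transcript, as reads shared by transcripts may have been assigned differently. With 1 library left out, the adjusted p of the full CEMIP2 sum was 0.0618 without control 1, 0.0635 without si library 2 and 0.0636 without si library 3, and under 0.05 in the other 3 fits.

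CD44 had 401, 356 and 414 CPM in the controls and 372, 350 and 401 CPM in the si libraries. The ranges overlapped, with means of 390 ± 30.1 and 374 ± 25.5 CPM (SD, n = 3 each) and an adjusted p of 0.734 in edgeR.

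Of the other hyaluronan-cutting members, HYAL2, known as a GPI-anchored hyaluronidase, had 41.3, 40.3 and 53.0 CPM in the controls and 47.4, 43.0 and 40.0 CPM in the si libraries. HYAL3, a further member of the hyaluronidase family, had 10.2, 14.0 and 12.4 CPM in the controls and 16.6, 16.2 and 15.5 CPM in the si libraries. The HYAL2 values overlapped, whereas each si value of HYAL3 was above each control value, a log2 fold change of 0.40 (SE 0.13, adjusted p = 0.208 in edgeR). CEMIP, a secreted protein that takes part in hyaluronan breakdown, was at low counts, with 22, 57 and 43 counts in the controls and 35, 42 and 32 in the si libraries. Its 2 groups overlapped.

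The synthases were at low levels. HAS2 had 14.7, 15.1 and 15.2 CPM in the controls and 17.3, 16.1 and 21.6 CPM in the si libraries, without overlap (log2 fold change 0.29, SE 0.13, adjusted p = 0.308 in edgeR), and without si library 3 the log2 fold change was 0.16. HAS3 had 15, 27 and 26 counts in the controls and 32, 28 and 12 in the si libraries. The lowest and the highest HAS3 count were both in the si libraries.

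In all, 1 of the 7 members had an adjusted p under 0.05, where 0.982% of the 13750 genes did, and the groups did not overlap for 3 of the 7, where they did not for 25.1% of all genes. The thresholds of the study were an unadjusted p under 0.05 and a log2 fold change beyond 1 either way. With the edgeR p in place of the Cuffdiff p of the study, 0 of the 7 passed them, where 0.778% of all genes did. These shares are given only as the background, since the members were chosen on this comparison. In bulk RNA a lower level could be fewer cells that express a gene or less RNA per cell, which cannot be told apart.

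**Figure D2:**
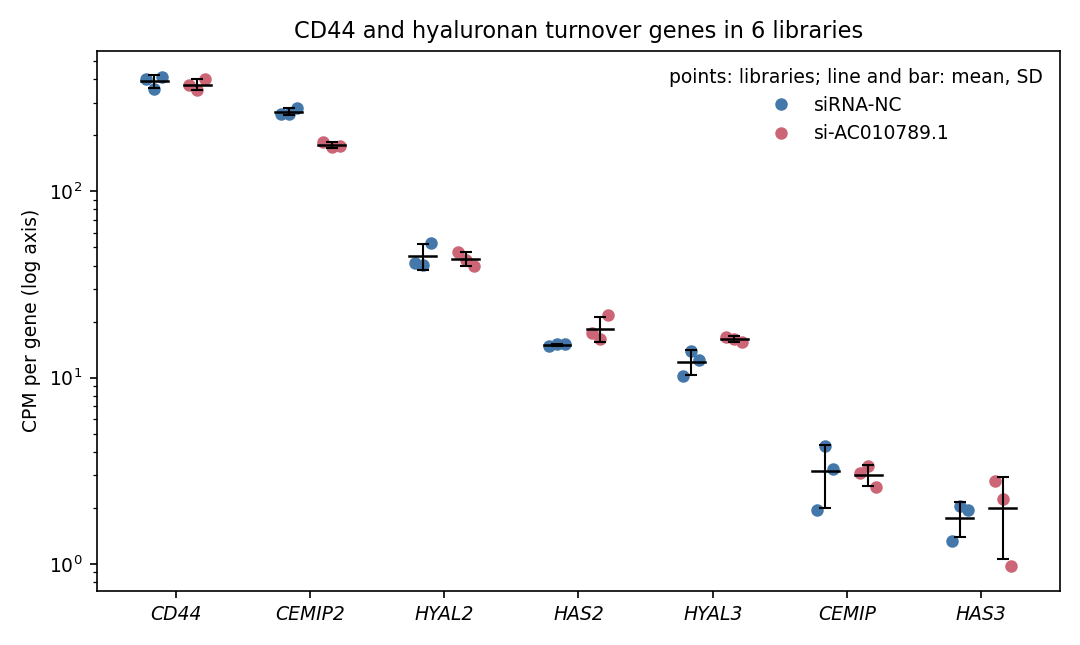
Level of each gene in CPM on a log axis, with 1 point per library (blue, siRNA-NC, n = 3; red, si-AC010789.1, n = 3), the mean as a line and the SD as a bar. The CEMIP2 points of si-AC010789.1 lie between 173 and 184 CPM, under the control points between 260 and 282 CPM, and the CD44 points overlap.

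To compare levels between genes, each transcript count was divided by the transcript's length, scaled to the same total in every library and summed per gene. The result depends on the transcript to which each read was assigned, since the lengths differ. On this per-length scale CD44 was the most abundant member, at a mean of 364 over the 6 libraries and rank 316 among the genes with counts. CEMIP2 followed at 96.5, HYAL2 at 42.1, HYAL3 at 20.2 and HAS2 at 7.68. Every neighbouring pair down to HAS2 and HAS3 had ranges over the 6 libraries that did not overlap. HAS3 at 1.06 and CEMIP at 0.955 did overlap, so their order was not resolved.

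The single transcripts of CEMIP2 differed between the groups far more than the sum. CEMIP2-210 had 1721, 2024 and 2061 counts in the controls and was listed at 0 in each si library. Set against the floor of 3 counts per library, it was at least 623-fold lower (adjusted p = 0.0300 in edgeR over 44319 transcripts). It took 57.3% ± 2.08 of the CEMIP2 count in the controls (SD, n = 3), so in these counts most control CEMIP2 was assigned to a form annotated for decay and none was in the si libraries.

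The 2 coding forms were higher where CEMIP2-210 was at 0. CEMIP2-205 had 683, 838 and 849 counts in the controls and 1565, 1117 and 1156 in the si libraries, a log2 fold change of 0.76 (SE 0.19, adjusted p = 0.609 in edgeR). CEMIP2-202 had 228, 246 and 345 counts in the controls and 340, 565 and 489 in the si libraries (log2 fold change 0.81, SE 0.23, adjusted p = 0.726 in edgeR). CEMIP2-205 did not overlap between the groups, while the lowest si count of CEMIP2-202 was under the highest control count and only its CPM values were apart. The share of CEMIP2-205 in the gene was 23.3% ± 0.850 in the controls and 59.7% ± 12.5 in the si libraries, and that of CEMIP2-202 was 8.01% ± 1.06 and 21.6% ± 5.06 (SD, n = 3 each).

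In CPM, CEMIP2-210 differed by more than the coding forms did. CEMIP2-202 and CEMIP2-205 together were at 86.2 ± 5.40 CPM in the controls and 147 ± 19.4 CPM in the si libraries, and with CEMIP2-210 the 3 forms were at 243 ± 7.56 and 147 ± 19.4 CPM (SD, n = 3 each). The CEMIP2 count outside CEMIP2-210 was 118 ± 11.5 CPM in the controls and 181 ± 6.50 CPM in the si libraries. Since CEMIP2-205 shares 99.3% of its bases with CEMIP2-210, and CEMIP2-202 holds every base of CEMIP2-210, most reads from these transcripts could come from any of them. How the authors' counting divided such reads is not given in the sources used here, so a change of splicing and a change of assignment cannot be told apart in these counts. The 34 bases and the 189 nt printed above are where CEMIP2-205 and CEMIP2-210 differ.

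The 189 nt exon gives another grouping of the same counts. The forms that hold it, CEMIP2-202 and CEMIP2-210, took between 64.1% and 66.0% of the CEMIP2 count in the controls and between 16.1% and 26.1% in the si libraries. Among the lesser transcripts, the retained-intron form CEMIP2-209 had 216, 237 and 410 counts in the controls and 144, 397 and 434 in the si libraries, which overlapped, and the remaining 8 each took under 1% of the gene on average in either group.

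**Figure D3:**
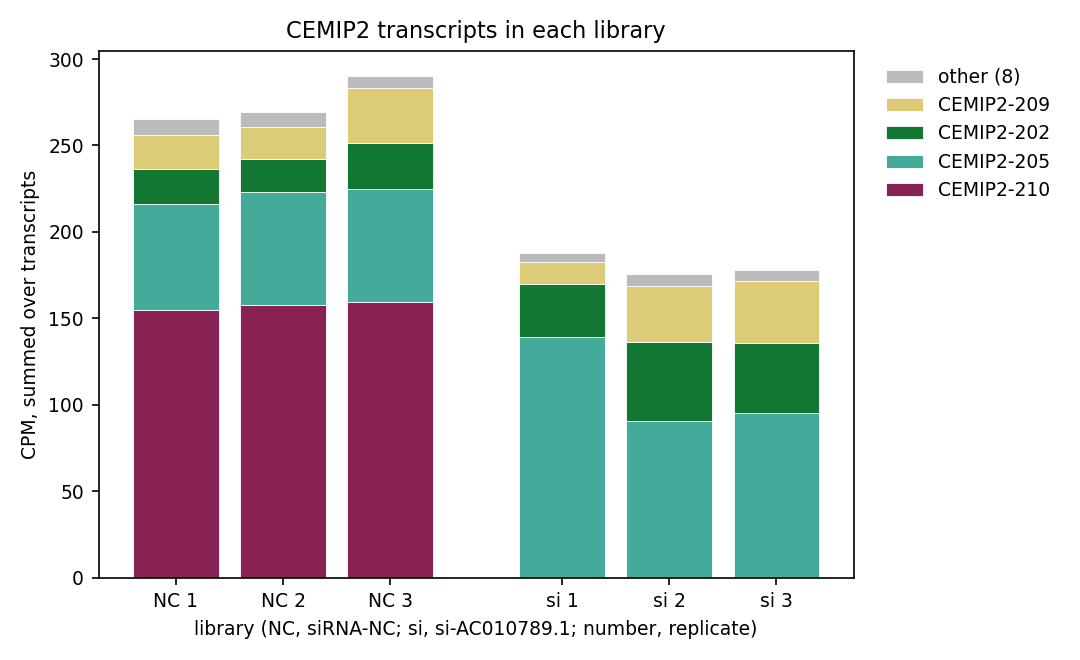
CPM of the CEMIP2 transcripts in each library, stacked, with the 8 least abundant ones summed in grey, on transcript-level library sizes, so the stacks differ slightly from the gene CPM. CEMIP2-210 (dark red) takes from 54.9% to 58.6% of the CEMIP2 count in siRNA-NC and is listed at 0 in si-AC010789.1, where CEMIP2-205 and CEMIP2-202 (greens) are taller.

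A transcript listed at 0 in every library of a group with at least 100 counts in every library of the other occurred for 11 of the 44319 transcripts tested (0.0248%), CEMIP2-210 among them. Of the 34 member transcripts tested, CEMIP2-210 alone had an adjusted p under 0.05, where 0.0135% of all transcripts did. This call was kept without si library 1 (0.0447) and lost without any other library, with adjusted p-values from 0.0590 (without si library 2) to 0.149 (without control 2), 0.133 without control 1, 0.147 without control 3 and 0.0782 without si library 3. The fit without a low-count filter gave 0.0762. At the thresholds of the study, again with the edgeR p, 2 of the 34 passed, CEMIP2-210 and CD44-210, where 3.50% of all transcripts did. In CPM the groups did not overlap for 4 of the 34 on the higher side and 1 on the lower, where 6.87% and 7.10% of all transcripts did so.

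The CD44 count came mostly from the standard form in both groups. CD44-201 had 3079, 3508 and 3708 counts in the controls and 3003, 2936 and 3336 in the si libraries, which was between 67.1% and 74.2% of the CD44 count in a library. CD44-208, with all 9 variable exons, had from 0 to 2 counts. Among the 36 listed CD44 transcripts, 3 hold the direct junction, 25 hold all or part of at least 1 variable exon and 8 hold neither. The class of 25 thus includes forms that end within a variable exon, and retained-intron forms. Transcripts with a variable exon took 18.2%, 10.7% and 9.84% of the CD44 count in the controls and 10.8%, 5.96% and 10.5% in the si libraries. The highest share was in a control and the lowest in an si library, the ranges overlapped, and the means were 12.9% ± 4.57 and 9.09% ± 2.71 (SD, n = 3 each). Counting only the protein-coding transcripts gave 12.8% ± 4.89 and 9.14% ± 2.91.

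Within the variable-exon class, single libraries set the values. CD44-210, which holds v10 alone, had 415, 49 and 292 counts in the controls and 33, 52 and 55 in the si libraries. Controls 1 and 3 stood apart and control 2 lay with the si libraries, and the log2 fold change of −2.44 (SE 0.82) had an adjusted p of 0.818 in edgeR. CD44-228, with v4 and part of v5, had 206, 234 and 0 counts in the controls and 139, 0 and 261 in the si libraries. CD44-209, with v8, v9 and v10, was steadier, with 29, 64 and 39 counts in the controls and 64, 72 and 53 in the si libraries.

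Swings between libraries of a group also occurred outside the variable exons. CD44-211, another form with the direct junction, had 7, 230 and 15 counts in the controls and 142, 150 and 205 in the si libraries. The retained-intron forms CD44-232 and CD44-225 had 22, 61 and 476 counts and 294, 4 and 373 counts in the controls. In the si libraries they had 19, 622 and 21 counts and 227, 7 and 446 counts. Each of these transcripts was high and low in both groups except CD44-211, which was low in controls 1 and 3 alone. For each of the 16 CD44 transcripts tested, the groups overlapped.

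**Figure D4:**
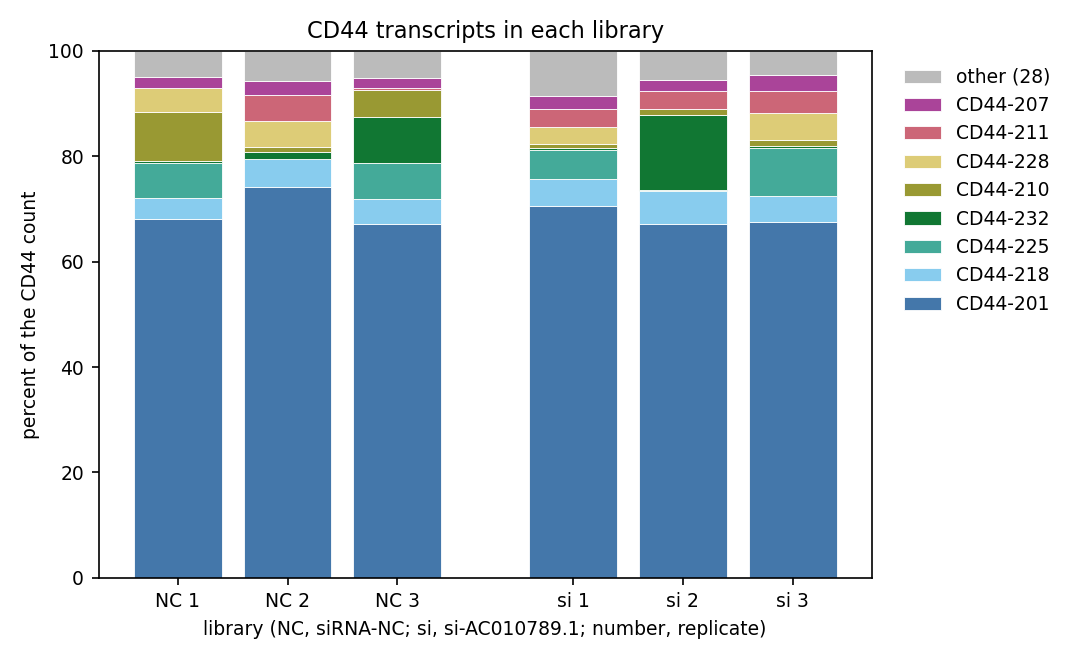
Share of the CD44 count taken by each transcript in each library, in percent, with the 28 least abundant transcripts summed in grey. CD44-201 (blue) lies between 67.1% and 74.2% in every library, and CD44-232, CD44-210, CD44-228 and CD44-211 change between libraries of the same group.

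A primer pair for CD44 that the study used in qRT-PCR was matched to the transcripts, to find which of these forms it would read. Both primers lie in the constant exon before the variable exons, at chr11:35189906-35189925 and chr11:35190016-35190035 of GRCh38, and give a product of 130 bp on each of 19 annotated transcripts, 17 of them with counts. Standard and variable forms are thus read together.
CD44 forward primer: CCCAGCAACCCTACTGATGA
CD44 reverse primer: TGATCCAGGGACTGTCTTCG
The 17 transcripts held between 84.7% and 92.8% of the CD44 count. They were at 357 ± 15.5 CPM in the controls and 334 ± 11.04 CPM in the si libraries (SD, n = 3 each), with overlapping values. By qRT-PCR, the paper reports lower CD44 mRNA after AC010789.1 knockdown in HCT116 and another line. It does not state whether the RNA of these libraries was used there.

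Across the members, single transcripts varied more within a group than the gene sums did. Of the 7 gene sums, those of CEMIP and HAS3 differed over 2-fold between libraries of the same group, where 13.8% of all genes did. Of the 34 tested transcripts, 22 (64.7%) differed over 2-fold between libraries of the same group, where 65.6% of all tested transcripts did. A count of at least 20 in a library and at most 3 in another of the same group occurred for 6 of the 34, where 15.4% of all tested transcripts showed it, so in both measures the members were near the background.

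The clearest such pair was in CEMIP. CEMIP-203 had 22, 55 and 0 counts in the controls and 34, 0 and 32 in the si libraries, and CEMIP-201 had 0, 0 and 42 and then 0, 42 and 0. The library in which 1 of them was at 0 was the library in which the other was not. They share 7198 nt and the same coding sequence, and their sum gave 22, 55 and 42 counts in the controls and 34, 42 and 32 in the si libraries.

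HAS3 and HYAL2 had pairs of the same kind. HAS3-202 had 14, 27 and 26 counts in the controls and 27, 28 and 0 in the si libraries, and HAS3-205, with the same coding sequence, had 10 counts in that last library and 0 in the others. HYAL2-202 had 289, 355 and 654 counts in the controls and 286, 378 and 245 in the si libraries. HYAL2-208, which holds all of HYAL2-202 and 1918 nt more, had 142, 132 and 19 counts in the controls and 219, 90 and 184 in the si libraries. Control 3 was thus highest for HYAL2-202 and lowest for HYAL2-208. The sums of the HYAL2 pair overlapped between the groups, at 42.9 ± 7.89 and 39.4 ± 4.96 CPM (SD, n = 3 each).

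HYAL3 and HAS2 carried their gene-level differences in different ways. HYAL3-201, a full-length form of 417 codons, had 68, 58 and 46 counts in the controls and 97, 98 and 114 in the si libraries, without overlap (log2 fold change 0.87, SE 0.30, adjusted p = 0.818 in edgeR). The other tested HYAL3 transcripts, HYAL3-202, HYAL3-204 and HYAL3-205, overlapped. HAS2 has a single annotated transcript, so its sum and its transcript are the same counts.

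Several members overlap other genes, and the counting is not stated to use strand. HYAL2 overlaps TUSC2 and HYAL3 overlaps IFRD2 and NAA80 on the same strand, with 119, 156 and 142 counts for NAA80 in the controls and 165, 176 and 111 in the si libraries. CEMIP overlaps MESD on the other strand, which had 510, 521 and 608 counts in the controls and 981, 870 and 748 in the si libraries, many times those of CEMIP. HAS3 overlaps CHTF8 and HAS2 overlaps HAS2-AS1, which had 3 counts in 1 library and 0 in the others. The overlapping genes of CD44 (CD44-AS1 and AL133330.1) and of CEMIP2 (AL671309.1) had no row in the table used here. The levels of HYAL2, HYAL3, CEMIP and HAS3 are uncertain to that extent.

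The wider hyaluronan and CD44 pathway was followed through 8 lists with 72 genes, of which 54 had counts and 47 were tested. In these, 1 gene was higher and 2 were lower at an adjusted p under 0.05 (edgeR), where 0.284% of all genes were higher and 0.698% lower. The median log2 fold change was −0.0056, beside −0.00066 over all 13750 genes, and ran from −0.032 to 0.0097 with 1 library left out. Of the 47 genes, 23 had a positive log2 fold change. The groups did not overlap for 23 of the 47 in either direction, where they did not for 25.1% of all genes. The lists were chosen with earlier results of these data known, so this share is only a description.

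Among the enzymes that make the sugar precursors, 0 of 7 passed, with a median log2 fold change of 0.065, which was 0.0097 without si library 1 and 0.010 without control 3. UGDH, which makes UDP-glucuronic acid, was at 208 ± 22.7 CPM in the controls and 190 ± 16.9 CPM in the si libraries. GFPT1, the entry enzyme of the hexosamine pathway, was at 152 ± 20.04 and 183 ± 39.1 CPM. UAP1, which makes UDP-N-acetylglucosamine, was at 141 ± 4.20 and 148 ± 0.453 CPM (SD, n = 3 each). UGP2, also on this list, was named after its values were seen, at 138 ± 7.94 and 106 ± 8.59 CPM, without overlap. Its log2 fold change was −0.38 (adjusted p = 0.0863 in edgeR).

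Of the 8 tested genes of hyaluronan degradation, CEMIP2 passed and the median log2 fold change was −0.064, with −0.15 without control 1, −0.10 without si library 1 or si library 2, −0.037 without control 3 and 0.0093 without si library 3, where its sign turned. HEXA, a lysosomal enzyme subunit, had a log2 fold change of 0.012 (adjusted p = 0.939 in edgeR). HYAL1, the lysosomal hyaluronidase, was named after its values were seen. It had 47.2, 56.1 and 56.9 CPM in the controls and 75.0, 69.5 and 73.8 CPM in the si libraries, without overlap (log2 fold change 0.45, adjusted p = 0.0847 in edgeR). Of the receptors, 0 of 4 tested passed, HMMR (a hyaluronan-binding motility receptor) was at 112 ± 7.84 and 109 ± 3.20 CPM, and TLR4 was at 16.01 ± 1.19 and 14.3 ± 1.33 CPM. LYVE1, STAB2, LAYN and TLR2 had no row. Of the 17 hyaluronan-binding proteins only HABP4 was tested (log2 fold change 0.49, adjusted p = 0.208 in edgeR).

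Among the sheddases and γ-secretase subunits that cleave CD44, 1 of 8 tested genes passed. APH1A, a subunit of the γ-secretase complex, had 33.8, 40.9 and 32.0 CPM in the controls and 17.8, 19.0 and 16.2 CPM in the si libraries. It fell by 1.01 on the log2 scale (SE 0.12, adjusted p = 0.0260 in edgeR). This call was lost when any library was left out, with adjusted p-values from 0.0653 without control 2 to 0.105 without si library 3. On the per-length scale APH1A had 42.8, 48.4 and 43.6 in the controls and 34.3, 37.9 and 29.8 in the si libraries. The groups were closer there than in CPM, so the size of the fall depends on the scale. The single transcripts of APH1A were not examined. The sheddases ADAM10 and ADAM17 had log2 fold changes of 0.012 and 0.12, and NCSTN, another γ-secretase subunit, of −0.11, with adjusted p-values from 0.395 to 0.963 in edgeR.

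The cytoskeletal partners of CD44 were abundant, and 0 of 6 passed, with a median log2 fold change of −0.090. MSN, which links CD44 to actin, was at 1510 ± 30.2 and 1400 ± 39.8 CPM, the scaffold IQGAP1 at 1549 ± 135 and 1297 ± 70.5 CPM, and EZR, a relative of MSN, at 346 ± 1.41 and 330 ± 2.01 CPM (SD, n = 3 each). The adjusted p-values of these 3 were from 0.167 to 0.359 in edgeR, and the groups did not overlap for 4 of the 6 genes, where they did not for 25.1% of all genes.

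Of the 11 tested regulators of CD44 splicing, 1 passed. PTBP1, an RNA-binding protein known as a repressor of exon inclusion, had 166, 187 and 220 CPM in the controls and 341, 298 and 312 CPM in the si libraries and rose by a log2 fold change of 0.73 (SE 0.11, adjusted p = 0.0446 in edgeR). This call was lost when any library was left out, with adjusted p-values from 0.0504 without control 3 to 0.143 without control 2. YBX1 was at 733 ± 19.9 and 807 ± 37.4 CPM, SRSF1 at 434 ± 19.9 and 410 ± 4.72 CPM, and HNRNPA1 at 349 ± 16.4 and 313 ± 8.30 CPM (SD, n = 3 each), and ESRP1 had no row.

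**Figure D5:**
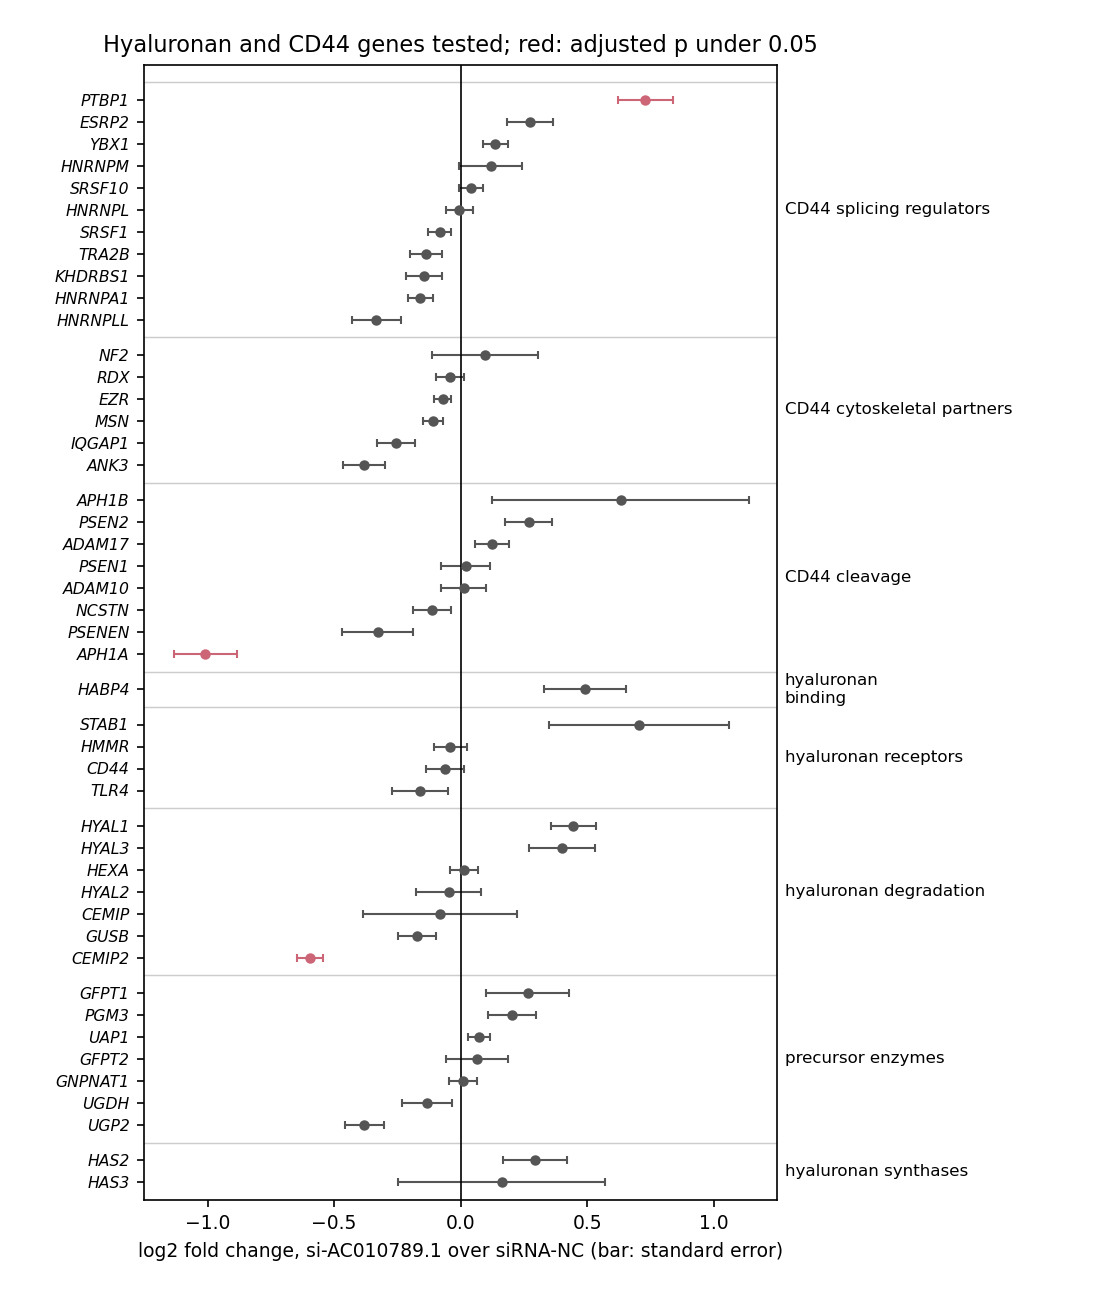
Log2 fold change of si-AC010789.1 over siRNA-NC with its standard error for 46 of the 47 tested genes of the 8 lists, in red where the adjusted p was under 0.05 (edgeR). Only PTBP1 at 0.73, APH1A at −1.01 and CEMIP2 at −0.59 are red, and CEMIP2 rests on a single transcript.

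The genes whose level over the 6 libraries followed a member most closely were named by Pearson's r of log2 CPM, as a description over points that share the 2 groups. For CD44 they were ARSD (r = 0.992), TMCO1 (r = 0.987) and UTP14C (r = 0.987), and 22 genes had r over 0.95. For CEMIP2 they were EZR (r = 0.998), MTA2 (r = 0.995) and RNF182 (r = 0.995), and 230 genes had r over 0.95.

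The title of the series names the microRNA miR-432-3p beside AC010789.1, so 3′ UTRs were searched for matches to its seed. The search took the annotated 3′ UTRs of all coding transcripts of each tested gene, with or without counts of their own. It looked for the 7-base matches CCATCCA and CATCCAA on the transcript strand. Of the 7 members, only HAS3 (in HAS3-202) held such a match, as 2366 of 12313 genes (19.2%) did, and none was in the annotated 3′ UTRs searched for CD44 or CEMIP2. A match is a description of letters and not a site.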

How the data were processed

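The authors deposited raw read counts per Ensembl transcript, made from paired-end TruSeq libraries. The submitters' processing notes name CASAVA 1.8, TopHat2 2.0.6, GRCh38 and mm10, and the paper names Cuffdiff. The counting program is not given in the sources used here. Gene sums were formed with GENCODE v29 (104 identifiers were not matched). Depth ran from 11277222 to 13443866 counts, and the floor of 3 counts covers counting error only.

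Genes and transcripts were tested with edgeR 4.0.16 (TMM, filterByExpr at min.count 10 and min.total.count 15, quasi-likelihood test, Benjamini-Hochberg adjustment) in R 4.3.3. Transcript shares and CD44 classes were described without a test. The tests were checked on simulated counts with known changes. The changes were put only on genes and transcripts above a minimum mean count, so recovery at lower counts was not measured. At simulated log2 fold changes of 1, 2 and 6 either way, edgeR recovered 68.6%, 96.7% and 98.6% of the changed genes. Of the changed transcripts it recovered 0% of 78, 0% of 66 and 41.1% of 56. False calls were 15 of 190 for genes and 0 of 23 for transcripts. A high adjusted p of a single transcript thus cannot decide against a change of 1 or 2 on the log2 scale. Alternatives were DESeq2 1.42.0, its size factors, no filter, a mean of at least 1 CPM, a replicate block and leaving out each library.

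Members and lists were chosen with earlier results of these data known. The text names the members, on each list the genes that passed and the 3 of highest mean CPM, the 3 genes most like CD44 and CEMIP2, and overlapping genes; 1 gene of these is not reported here. Python 3.11.15 and matplotlib 3.10.9 were used.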

Additional observations from a re-analysis of the deposited data

How the results depend on the processing

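DESeq2 in place of edgeR gave 520 genes, 675 transcripts and 5 pathway genes at an adjusted p under 0.05, in place of 135, 6 and 3. Without the low-count filter, 69 genes, 0 transcripts and 0 member transcripts passed in edgeR, with 4434 transcripts at an unadjusted p under 0.05. With 1 library left out, 12 to 37 genes, 0 to 6 transcripts, 0 to 1 members, 0 to 1 member transcripts and 0 to 1 pathway genes passed, and the 6 transcripts and 1 member transcript without si library 1 equalled the counts from all 6 libraries. Over these 6 fits the log2 fold change ran from −0.32 to 0.20 for CEMIP, reversed without control 2 (0.20) and si library 3 (0.014), from −0.12 to 0.089 for HYAL2, reversed without control 3 (0.089) and si library 3 (0.0082), and from −0.15 to 0.49 for HAS3, reversed without si library 1 (−0.15). CEMIP2 stayed negative in all 11 alternatives run on all genes, with an adjusted p under 0.05 in 7 of them, and was reversed (0.63) once CEMIP2-210 was left out of the sum. CD44 stayed negative in all 11 and passed in 0. The libraries were not treated as pairs, since no source ties a replicate number to a culture shared by both groups. Over genes, deviations of same-numbered libraries correlated at 0.111, 0.0109 and 0.0164, and those of differently numbered libraries from −0.089 to 0.079. These values do not show that pairing is absent. With the replicate block, 0 genes, 0 transcripts, 0 members, 0 member transcripts and 0 pathway genes passed in edgeR, with 2184 genes and 2200 transcripts at an unadjusted p under 0.05, the log2 fold change of CEMIP2 was −0.59 (adjusted p = 0.121 by edgeR), the adjusted p-values of CEMIP2-210, APH1A and PTBP1 were 0.966, 0.114 and 0.177, and the cause was not tested. The spread between libraries limits single transcripts most, so a p that misses the threshold does not show that transcripts were alike.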
